A study of Mus musculus with 5 samples.

Results

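The cadherin superfamily of the E13.5 mouse neocortex was followed through an eIF4E immunoprecipitation. The genes were taken by symbol from the deposited table: cadherins (Cdh followed by a number), protocadherins (Pcdh, clustered and not), Fat1 to Fat4, Dchs1, Dchs2 and Celsr1 to Celsr3. Pseudogenes were left out, and so were 7 of the 102 matching genes that were listed at 0 in all 5 libraries, Fat2 and Dchs2 among them. This left 95 of the 49875 genes in the table. All libraries came from the neocortex of wild-type embryos (tissue field: forebrain), dissociated and lysed so that the supernatant of a slow spin held the cytoplasm. The eIF4E libraries (n = 2, labelled biological replicates) hold RNA that came down with an antibody against eIF4E, the protein that binds the 5′ cap of mRNAs at the start of translation. The IgG library (n = 1) holds RNA that came down with rabbit control immunoglobulin G. The Input libraries (n = 2, labelled biological replicates) hold the cytoplasmic RNA itself. The labels do not say which embryos or pools stand behind a replicate, and so the p-values speak only for the spread among these 5 libraries, part of which may be technical.

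Cadherins are membrane proteins whose extracellular repeats bind calcium and the repeats of cadherins on the neighbouring cell. Type I and type II classical cadherins join that contact to actin through catenins, and in the developing cortex they hold radial glia together at the ventricular surface and sort neurons. Protocadherins lack the catenin-binding tail. The delta protocadherins are scattered over the genome, whereas the alpha, beta and gamma protocadherins sit in 1 array on chromosome 18 from which each neuron expresses a few isoforms. Fat and Dachsous proteins are very large cadherins that bind each other across cells, and Celsr proteins are cadherins with a receptor-type membrane domain that take part in planar cell polarity.

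Values are RSEM abundances per transcript length, either FPKM or TPM, so levels may be compared between genes within a library. Column totals were 718857 and 708778 in eIF4E, 560076 in IgG, and 838759 and 848550 in Input, and the number of reads behind a value is unknown. Markers of the labelled tissue were present, with the summed level of 10 cortical progenitor genes at 1593 and 1470 in eIF4E, 1266 in IgG, and 1908 and 1942 in Input, and none of them listed at 0. Of the 95 genes, the eIF4E libraries listed 3 and 2 at 0, the IgG library 53, and the Input libraries 4 and 3, so that IgG stood apart. Over the whole table IgG had 11825 genes above 0, beside 17412 to 18745 in the other libraries. The 95 include genes too low to be tested. Among the genes tested below, IgG listed 12 (25.0%) of 48 members and 2651 (20.8%) of all 12769 at 0. Among markers of other cells, 6 of 6 tested erythroid genes, 4 of 6 microglial genes and 2 of 2 choroid plexus genes were lower in eIF4E than in Input and none of these was higher, whereas meningeal and endothelial or mural markers went both ways, with 2 of 5 and 2 of 9 higher and 3 and 5 lower. The erythroid sum was 5595 and 4262 in eIF4E, 2295 in IgG, and 15724 and 17150 in Input, and the part of these differences in the results below was not tested. Of 8 neuronal and 5 intermediate progenitor markers, 5 and 4 were higher and 1 of each was lower. Of the 10 cortical progenitor genes, 4 were higher and 5 lower, and of 6 interneuron markers 4 were higher and 2 lower. Beside these marker counts, 43.3% of all 12769 genes were higher and 30.6% were lower.

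A gene was tested when it reached a value of 1 in at least 2 of the 5 libraries, which 48 of the 95 did. The other 47 stayed at or below 1.82 in eIF4E and Input and at or below 4.4 in IgG. They comprised 11 alpha, 17 beta and 9 gamma protocadherins, Pcdh20, and 9 cadherins, Cdh1 among them. Of the 48, 4 (Cdh6, Pcdh17, Pcdhb7 and Pcdhb21) reached the minimum through the eIF4E libraries alone, so a higher value there was built into their selection. Likewise 2 (Pcdh1 and Pcdhgb1) reached it through the Input libraries alone, which built in a lower eIF4E value. In Pcdh7, Pcdh11x, Pcdh15, Pcdhac1, Pcdha12 and Fat3 both Input values were under 1. Passing then needed an eIF4E value of at least 1, which also favoured a higher value there. Pcdhga2 needed an Input value in the same way. Differences were tested with limma on log2(value + 1) and called at an adjusted p under 0.05, and every fold below is on that scale. The main fit used the values as deposited, without scaling between libraries, so its folds carry the unequal column totals.

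In eIF4E against Input, 21 of 48 genes (43.8%) were higher and 12 (25%) were lower, where 43.3% and 30.6% of all 12769 genes were called. The share of members called higher thus lay near the background, and their median log2 fold change of 0.20 lay beside 0.16 for all genes. By subfamily, type II classical cadherins had 5 of 8 tested genes higher and 1 lower, delta protocadherins 7 of 9 higher and 2 lower, and beta protocadherins 3 of 4 higher and none lower, whereas gamma protocadherins had none of 13 higher and 4 lower; no difference between subfamilies was tested. These counts include the 6 genes selected through 1 group alone and those that needed an eIF4E or Input value to pass. They depend on the scaling, which moved the median of all genes to -0.11 with median-of-ratios factors or quantile normalization and to 0.36 with equal totals. With quantile normalization 12 members were higher and 21 lower (33.7% and 40.3% of all genes), and with equal totals 23 and 7 (50.9% and 21.5%). Without Input replicate 2 there were 16 higher and 7 lower (37.7% and 23.0% of all genes), and without Input replicate 1 there were 15 and 8 (38.1% and 23.2%).

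**Figure D1:**
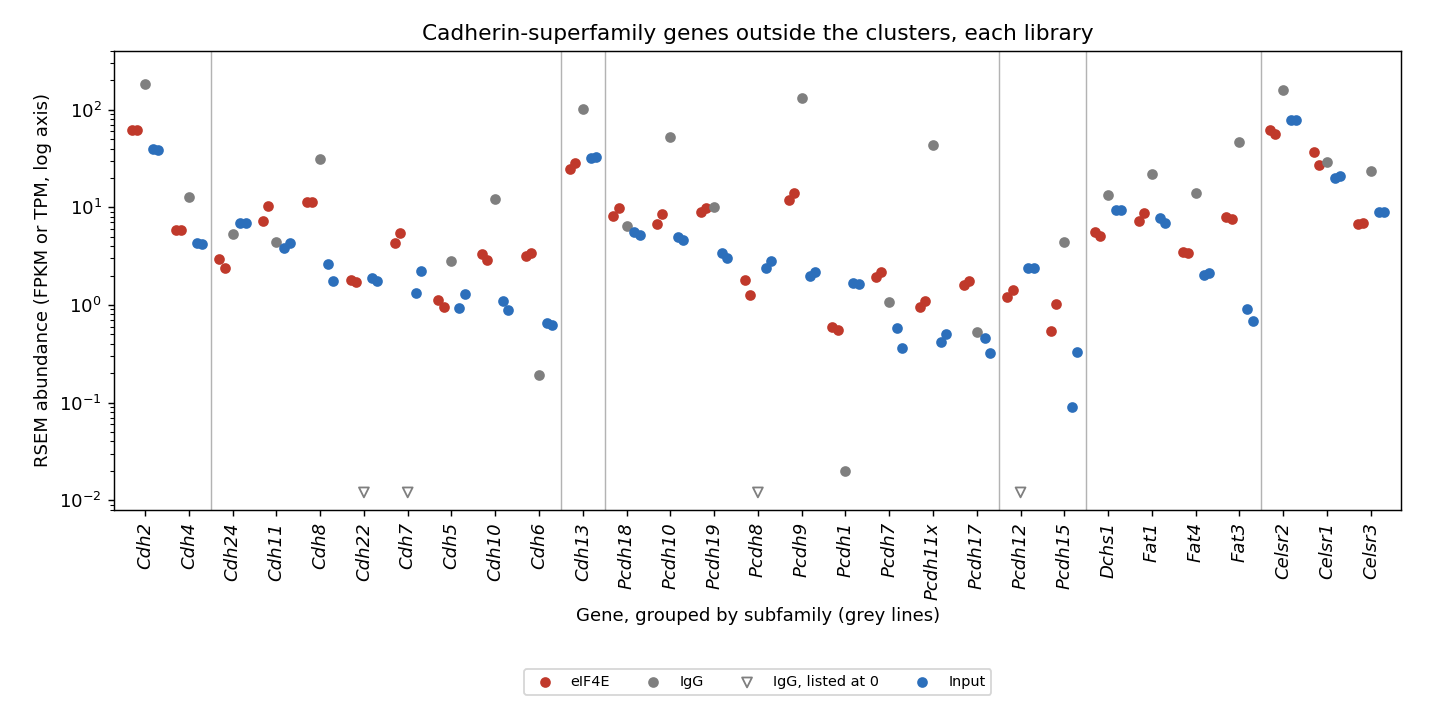
Level of the 29 tested genes outside the protocadherin clusters in each library (RSEM abundance, log axis), with 1 point per library and genes grouped by subfamily. Open triangles mark genes listed at 0 in IgG, and Pcdh9, Pcdh11x and Fat3 show IgG points far above both other groups.

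Cdh2 (N-cadherin; ENSMUSG00000024304; chromosome 18, 16588877 to 16809246, GRCm38), the main adherens junction cadherin of neural progenitors, measured 61.61 and 62.55 in eIF4E, 182.16 in IgG, and 39.82 and 38.95 in Input. The groups did not overlap, with eIF4E between Input and the far higher IgG. The rise over Input was 1.56-fold (log2 0.64, SE 0.05, adjusted p = 0.000384), and eIF4E stood at 0.344 of IgG in the comparison with that library (adjusted p = 4.02e-05). The rise over Input held in direction and call under each alternative tried. Cdh4 (R-cadherin; chromosome 2, 179442423 to 179899377), a close relative found in regions of the embryonic brain, measured 5.92 and 5.82 in eIF4E, 12.73 in IgG, and 4.28 and 4.19 in Input, far below Cdh2 in every library. Its order of groups was the same, at 1.31-fold (log2 0.39, SE 0.08, adjusted p = 0.0119). That rise was not past the test after median-of-ratios scaling (log2 0.12), without eIF4E replicate 1 (adjusted p = 0.0516) or without Input replicate 2 (adjusted p = 0.0551), and quantile normalization turned its direction (log2 -0.20). Within each library the ratio of Cdh4 to Cdh2, which needs no scaling, was 0.0961 and 0.093 in eIF4E, 0.0699 in IgG, and 0.107 and 0.108 in Input. Cdh1 (E-cadherin), the cadherin of epithelia, was near 0 at 0 and 0.02 in eIF4E, a listed 0 in IgG, and 0.15 and 0.38 in Input, and Cdh3 and Cdh15, the other type I genes, reached at most 0.29 in any library. None of these 3 was tested.

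Among type II cadherins, which sort neurons into groups by selective contact, Cdh8 stood out. Cdh8 (ENSMUSG00000036510; chromosome 8, 99024471 to 99417666) measured 11.31 and 11.45 in eIF4E, 31.46 in IgG, and 2.63 and 1.74 in Input. Both eIF4E values lay well above both Input values and well below IgG, with a rise over Input of 3.93-fold (log2 1.97, SE 0.16, adjusted p = 0.000436). Cdh6 (chromosome 15, 13028699 to 13176407), found in restricted regions of the embryonic brain, measured 3.14 and 3.42 in eIF4E, 0.19 in IgG, and 0.66 and 0.63 in Input. Its eIF4E libraries were the highest of the 5, at 2.6-fold (log2 1.38, SE 0.11, adjusted p = 0.000488) against Input and 3.59-fold against IgG (adjusted p = 0.000242), although quantile normalization took the difference from IgG to log2 -0.053. Cdh6 was tested through its eIF4E values alone, which had built in a higher value there. Cdh7 measured 4.34 and 5.47 in eIF4E, a listed 0 in IgG, and 1.34 and 2.22 in Input, and its rise over Input was 2.14-fold (log2 1.10, SE 0.21, adjusted p = 0.00725). Cdh10 measured 3.29 and 2.91 in eIF4E, 12.22 in IgG, and 1.1 and 0.88 in Input. It rose 2.06-fold over Input, with IgG again above both other groups.

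Cdh11, a type II cadherin also known from mesenchyme, measured 7.17 and 10.34 in eIF4E, 4.39 in IgG, and 3.79 and 4.34 in Input. The IgG value fell beside the Input values, and eIF4E was higher than Input at 1.9-fold (log2 0.93, SE 0.19, adjusted p = 0.00909). Without Input replicate 1 this call was lost (adjusted p = 0.0687), as it was with quantile normalization (adjusted p = 0.123). Among 5 tested markers of meninges and mesenchyme, 2 were higher and 3 lower in eIF4E against Input, and their part in the Cdh11 result was not tested. Cdh24 (chromosome 14, 54631231 to 54642067) went the other way: it measured 2.99 and 2.38 in eIF4E, 5.33 in IgG, and 6.95 and 6.88 in Input. Both eIF4E libraries were the lowest of the 5, at 0.464 of Input (log2 -1.11, SE 0.12, adjusted p = 0.00116), the lowest log2 fold change among the 48 genes. The ratio of Cdh8 to Cdh24 within a library was 3.78 and 4.81 in eIF4E, 5.9 in IgG, and 0.378 and 0.253 in Input.

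Cdh5 (VE-cadherin), the adherens junction cadherin of endothelial cells, measured 1.12 and 0.96 in eIF4E, 2.84 in IgG, and 0.93 and 1.29 in Input. The eIF4E and Input libraries overlapped, and the difference was not past the test (0.97 of Input, adjusted p = 0.788), with a sign that changed between alternatives. With quantile normalization it was called lower (adjusted p = 0.0381), and IgG was the highest library as deposited. Cdh22 also was not past the test (0.97 of Input). The summed level of 10 endothelial and mural markers was 67.8 and 66.7 in eIF4E, 22.1 in IgG, and 138.2 and 145.6 in Input. Of these, 5 of 9 tested were lower and 2 higher in eIF4E against Input, and 5 of 10, Cldn5 among them, were listed at 0 in IgG. Their part in the Cdh5 result was not tested. Here a precipitate was compared with cytoplasmic RNA, so these differences do not measure how many cells of a type were present.

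Cdh13 (T-cadherin; chromosome 8, 118140017 to 119324929) is held to the membrane by a lipid anchor and lacks a cytoplasmic tail. It was the third most abundant member in Input, measuring 24.79 and 28.41 in eIF4E, 101.34 in IgG, and 32.25 and 33.15 in Input. Both eIF4E libraries lay just below both Input libraries and far below IgG. The fall against Input was small, at 0.817 of Input (log2 -0.29, SE 0.08, adjusted p = 0.0287), and was lost with equal totals (log2 -0.058), without a low-value filter (adjusted p = 0.0755), without eIF4E replicate 1 (adjusted p = 0.0598) and without Input replicate 1 or 2 (adjusted p = 0.109 and 0.14). Cdh17, Cdh23 and Cdh26 stayed at or below 0.22 in every library.

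The 9 delta protocadherins, which regulate contact between neurons and between axons, were all tested. Pcdh9 (ENSMUSG00000055421; chromosome 14, 93013700 to 93892834) measured 11.84 and 14.12 in eIF4E, 130.75 in IgG, and 1.98 and 2.18 in Input. No groups overlapped, with eIF4E above Input and IgG far above eIF4E. The rise over Input was 4.53-fold (log2 2.18, SE 0.11, adjusted p = 0.000143) and held under each alternative tried, while against IgG eIF4E stood at 0.106 of IgG. Pcdh19 (chromosome X, 133582860 to 133689044), a gene linked to an inherited epilepsy in humans, measured 9.02 and 9.9 in eIF4E, 10.15 in IgG, and 3.37 and 3.02 in Input. Here IgG lay just above eIF4E, and both were above Input, with a rise of 2.49-fold (log2 1.32, SE 0.10, adjusted p = 0.000391).

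Pcdh18 and Pcdh10 were the most abundant delta protocadherins in Input. Pcdh18 measured 8.14 and 9.9 in eIF4E, 6.41 in IgG, and 5.55 and 5.18 in Input, a rise of 1.57-fold (log2 0.65, SE 0.12, adjusted p = 0.00708) that was lost without Input replicate 2 (adjusted p = 0.0529) and with quantile normalization (adjusted p = 0.419). Pcdh10 measured 6.77 and 8.52 in eIF4E, 52.59 in IgG, and 4.94 and 4.61 in Input, a rise of 1.49-fold (log2 0.58, SE 0.13, adjusted p = 0.0122) with IgG far above both. The Pcdh10 call was lost without Input replicate 1 or 2 (adjusted p = 0.0582 and 0.0782), with median-of-ratios scaling (adjusted p = 0.0914) and with quantile normalization (log2 0.042). The level order of the family differed between the groups: the ratio of Pcdh9 to Pcdh10 within a library was 1.75 and 1.66 in eIF4E, 2.49 in IgG, and 0.401 and 0.473 in Input.

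The other delta genes that rose had lower levels. Pcdh7 measured 1.92 and 2.2 in eIF4E, 1.06 in IgG, and 0.58 and 0.36 in Input, and Pcdh17 measured 1.61 and 1.76 in eIF4E, 0.53 in IgG, and 0.46 and 0.32 in Input. Both eIF4E values were the highest of the 5 in each gene, with rises of 2.09-fold and 1.93-fold over Input. The rise of Pcdh17 was built in, because it was tested through its eIF4E values alone. Pcdh7 and Pcdh11x needed an eIF4E value of at least 1 to pass, which favoured a rise in them too. Pcdh11x (chromosome X, 120290238 to 120910622) measured 0.96 and 1.11 in eIF4E, 43.14 in IgG, and 0.42 and 0.5 in Input. Its rise over Input was 1.39-fold (log2 0.48, SE 0.11, adjusted p = 0.0145), but IgG was so much higher that eIF4E stood at 0.0461 of IgG, the lowest of all members in that comparison. The call against Input was lost when eIF4E replicate 2 was left out (adjusted p = 0.0592) or Input replicate 1 (adjusted p = 0.065), and the direction turned with quantile normalization (log2 -0.0083).

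Pcdh1 and Pcdh8 were the delta protocadherins that fell. Pcdh1 measured 0.6 and 0.55 in eIF4E, 0.02 in IgG, and 1.66 and 1.63 in Input, at 0.595 of Input (log2 -0.75, SE 0.11, adjusted p = 0.00372), a fall that its selection through Input had built in. Pcdh8, which in rat neurons is known for internalizing N-cadherin, was 1.8 and 1.26 in eIF4E, a listed 0 in IgG, and 2.39 and 2.85 in Input. Both eIF4E values lay below both Input values in each gene, and IgG was at or near 0. Pcdh8 fell to 0.696 of Input (log2 -0.52, SE 0.16, adjusted p = 0.0361), a call lost without eIF4E replicate 2 (adjusted p = 0.116), without either Input replicate (adjusted p = 0.0822 and 0.163), with equal totals (adjusted p = 0.0947), without a low-value filter (adjusted p = 0.0829), with a pseudocount of 0.1 (adjusted p = 0.0516) and with the replicate number as a block (adjusted p = 0.0552).

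Outside the delta group, Pcdh12, a protocadherin of endothelial cells, measured 1.22 and 1.43 in eIF4E, a listed 0 in IgG, and 2.38 and 2.38 in Input, and both eIF4E values were below both Input values. It fell to 0.687 of Input (log2 -0.54, SE 0.12, adjusted p = 0.0118), a call that was lost without Input replicate 1 or 2 (adjusted p = 0.0571 and 0.0582). Of the endothelial and mural markers given beside Cdh5, 5 of 9 were also lower, and their part in the Pcdh12 result was not tested. Pcdh15, a component of the tip links of inner ear hair cells, measured 0.54 and 1.03 in eIF4E, 4.42 in IgG, and 0.09 and 0.33 in Input. Both eIF4E values were above both Input values, but the rise did not pass (1.47-fold, adjusted p = 0.0557). It passed with the replicate block (adjusted p = 0.0211), without eIF4E replicate 1 (adjusted p = 0.0393), with equal totals, with a pseudocount of 0.1 (log2 1.57) and among genes above 0 in all libraries.

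**Figure D2:**
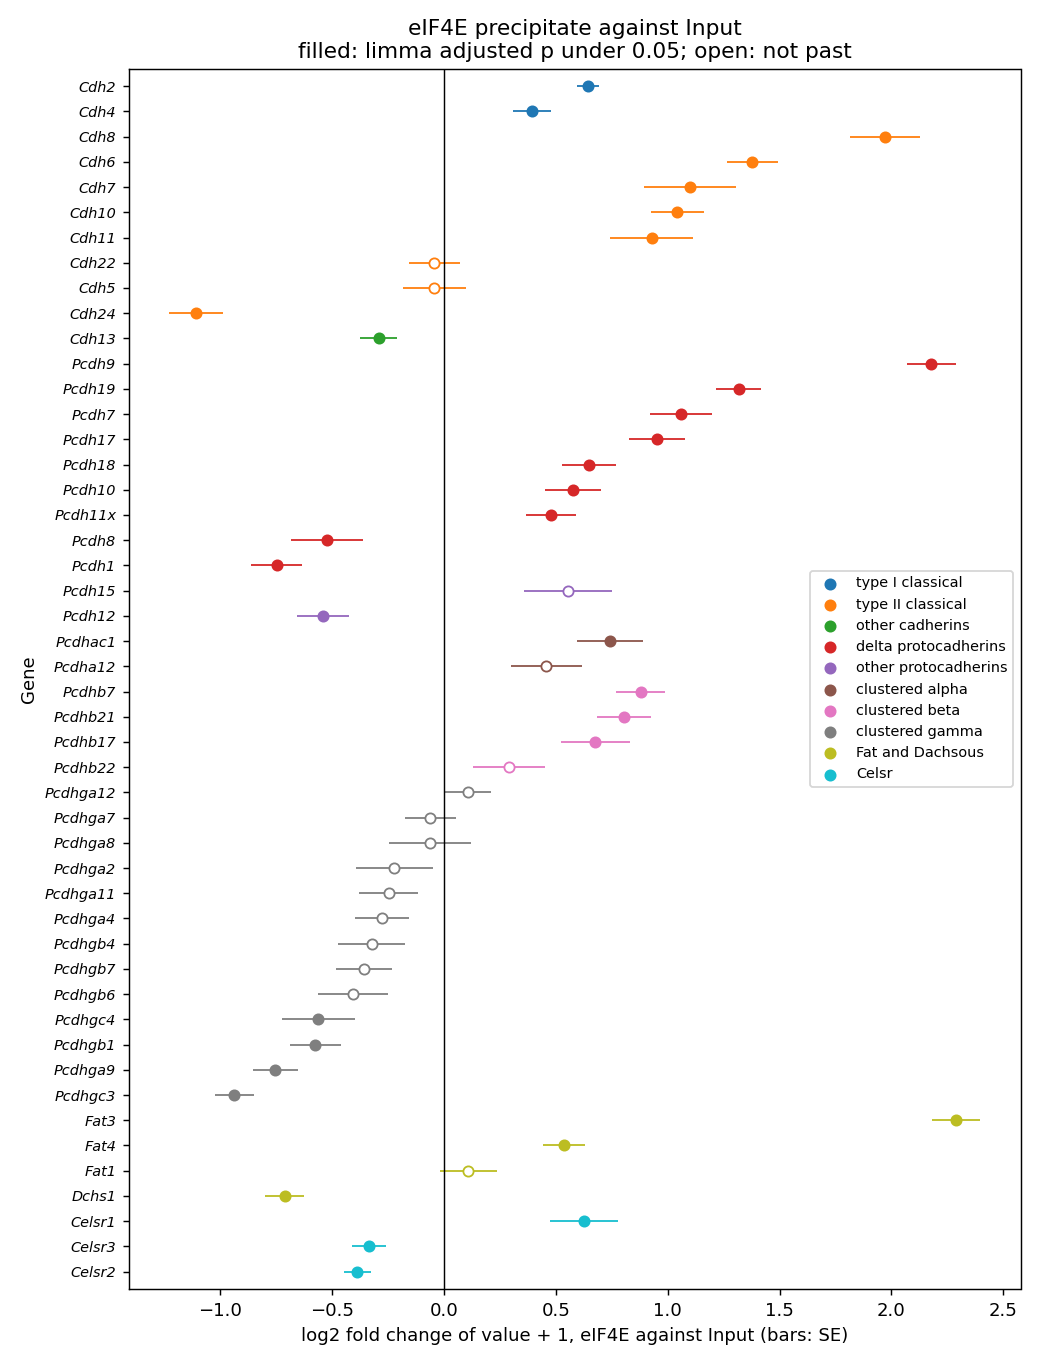
Log2 fold change of value + 1 in eIF4E against Input for the 48 tested genes, by subfamily, with bars of 1 SE and filled points where the limma adjusted p is under 0.05. Gamma protocadherins lie at or below 0 apart from Pcdhga12, whereas beta protocadherins and most delta and type II genes lie above it.

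The clustered protocadherins give neurons a surface identity through combinations of isoforms. Each alpha and gamma isoform joins its own variable exon to constant exons shared by its cluster, whereas each beta gene is a separate single exon. RSEM divides reads from the shared exons and from similar variable exons among the isoforms, so the value of 1 isoform is uncertain, and cluster sums are given first. The 21 beta genes summed to 14.84 and 16.83 in eIF4E, 6.64 in IgG, and 8.14 and 7.65 in Input. The 13 alpha genes summed to 8.35 and 8.05 in eIF4E, 12.86 in IgG, and 4.46 and 4.11 in Input. In contrast, the 22 gamma genes summed to 30.6 and 29.62 in eIF4E, 71.8 in IgG, and 45.49 and 47.48 in Input.

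As plain ratios of means, without the added 1, the beta and alpha sums in eIF4E were 2.01 and 1.91 times Input. The gamma sum was 0.648 of Input. The eIF4E and Input libraries did not overlap in any cluster. Sums over chosen genes were not tested. The ratio of the beta to the gamma sum within a library, which needs no scaling, was 0.485 and 0.568 in eIF4E, 0.0925 in IgG, and 0.179 and 0.161 in Input. The ratio of alpha to gamma was 0.273 and 0.272 in eIF4E, 0.179 in IgG, and 0.098 and 0.0866 in Input. Counting all members, tested or not, 14 of 21 beta and 9 of 13 alpha genes had both eIF4E values above both Input values, and 1 of each lay below. Of the 22 gamma genes, 5 lay above and 12 below. Over the 21578 genes above 0 in any library, 41.3% lay above and 28.8% below.

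**Figure D3:**
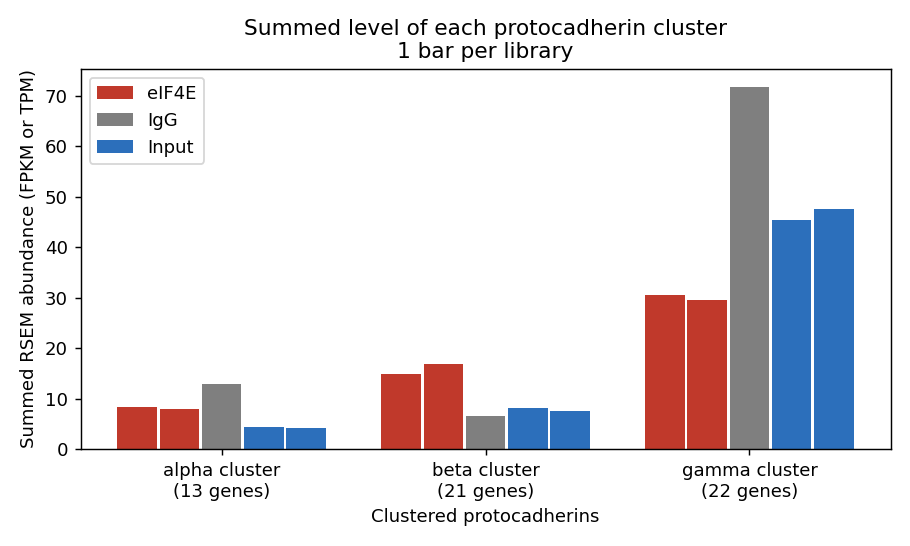
Summed level (RSEM abundance) of the alpha, beta and gamma protocadherin clusters, with 1 bar per library. Alpha and beta sums are higher in eIF4E than in Input (8.05 to 8.35 against 4.11 to 4.46, and 14.84 to 16.83 against 7.65 to 8.14), whereas gamma sums are lower (29.62 to 30.6 against 45.49 to 47.48).

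Pcdhgc3 (ENSMUSG00000102918; chromosome 18, 37806410 to 37841873), a C-type gamma isoform, was the most abundant clustered gene in eIF4E and Input, though not in IgG. It measured 9.14 and 8.47 in eIF4E, 6.99 in IgG, and 17.1 and 18.46 in Input. Both eIF4E values were far below both Input values and just above IgG. It fell to 0.522 of Input (log2 -0.94, SE 0.09, adjusted p = 0.000687) and made up 29.9% and 28.6% of the gamma sum in eIF4E, 9.74% in IgG, and 37.6% and 38.9% in Input. Without it the gamma sum was 21.46 and 21.15 in eIF4E, 64.81 in IgG, and 28.39 and 29.02 in Input, in the same order. Pcdhga9 measured 1.2 and 1.11 in eIF4E, 12.15 in IgG, and 2.57 and 2.7 in Input, at 0.593 of Input (log2 -0.75, SE 0.10, adjusted p = 0.00237).

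Pcdhgb1 and Pcdhgc4 also fell against Input and were listed at 0 in IgG. Pcdhgb1 measured 0.81 and 0.89 in eIF4E, a listed 0 in IgG, and 1.78 and 1.73 in Input (0.671 of Input, adjusted p = 0.00894), and it too was tested through its Input values alone. Pcdhgc4, the isoform reported to be needed for neuron survival in mice, measured 1.65 and 1.05 in eIF4E, a listed 0 in IgG, and 2.43 and 2.45 in Input (0.678 of Input, adjusted p = 0.0308). That call did not hold without eIF4E replicate 2 (adjusted p = 0.0698), without Input replicate 1 or 2 (adjusted p = 0.121 and 0.125), with equal totals (adjusted p = 0.0765) and without a low-value filter (adjusted p = 0.075). Pcdhgb6 measured 2.28 and 2.39 in eIF4E, 9.49 in IgG, and 2.89 and 4.03 in Input and was not past the test (0.754 of Input, adjusted p = 0.0666), although it was called lower once Input replicate 1 was left out (adjusted p = 0.0281), with median-of-ratios scaling (adjusted p = 0.0162) and with quantile normalization (adjusted p = 0.00712). Median-of-ratios scaling and quantile normalization raised the count of gamma genes lower to 9 and 11 of 13, where 41.2% and 40.3% of all genes were lower, and equal totals left 3, where 21.5% of all genes were lower.

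The IgG library held its gamma signal in few isoforms. It listed 13 of 22 gamma genes, 8 of 13 alpha genes and 19 of 21 beta genes at 0. Of the 21578 genes above 0 in any library, 11825 were above 0 in IgG, so zeros there were common beyond the clusters. Counting tested genes only, the IgG library listed 5 of 13 gamma, none of 2 alpha and 3 of 4 beta genes at 0, beside 20.8% of all genes tested. Pcdhga11 alone measured 2.13 and 1.58 in eIF4E, 27.91 in IgG, and 2.46 and 2.29 in Input. Among beta genes, Pcdhb7 had the highest log2 fold change. It measured 2.51 and 2.57 in eIF4E, a listed 0 in IgG, and 0.92 and 0.93 in Input, a rise of 1.84-fold (log2 0.88, SE 0.11, adjusted p = 0.00187) with no overlap. Pcdhb21 measured 1.28 and 1.18 in eIF4E, a listed 0 in IgG, and 0.3 and 0.25 in Input (1.75-fold, adjusted p = 0.00338). Pcdhb17 measured 2.28 and 3.07 in eIF4E, 2.29 in IgG, and 1.41 and 1.17 in Input (1.6-fold, adjusted p = 0.0141). In both, the eIF4E values lay above both Input values. Pcdhb7 and Pcdhb21 were tested through their eIF4E values alone, which had built in a higher value there. Pcdhb22 measured 1.15 and 1.39 in eIF4E, a listed 0 in IgG, and 0.67 and 1.06 in Input and did not pass (1.22-fold, adjusted p = 0.162). The Pcdhb17 call was lost without Input replicate 1 or 2 (adjusted p = 0.0521 and 0.0826) and with quantile normalization (adjusted p = 0.253).

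Of the 13 alpha genes, 2 were tested. Pcdhac1 measured 1.02 and 1.35 in eIF4E, 1.78 in IgG, and 0.22 and 0.39 in Input, and both eIF4E values were above both Input values. The rise, favoured because Pcdhac1 needed an eIF4E value to be tested, was 1.67-fold (log2 0.74, SE 0.15, adjusted p = 0.00892). Its call was lost without Input replicate 1 (adjusted p = 0.0532) and with quantile normalization (adjusted p = 0.185). Pcdha12 measured 1.74 and 1.14 in eIF4E, 6.25 in IgG, and 0.8 and 0.73 in Input and was not past the test (1.37-fold, adjusted p = 0.0526), although it passed when eIF4E replicate 2 was left out (adjusted p = 0.024), with the replicate block (adjusted p = 0.0496) and under 4 other alternatives (adjusted p from 0.0248 to 0.0445).

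The Fat and Dachsous genes diverged. Fat3 (ENSMUSG00000074505; chromosome 9, 15910189 to 16502681), known for shaping the dendrites of retinal neurons in mice, measured 7.9 and 7.61 in eIF4E, 46.24 in IgG, and 0.91 and 0.68 in Input. All groups were apart, with eIF4E far above Input and IgG higher still. Its rise over Input was 4.89-fold (log2 2.29, SE 0.11, adjusted p = 0.000121), the highest log2 fold change among the 48 genes, and held under each alternative tried. Fat3 needed an eIF4E value of at least 1 to be tested, which favoured a higher value there. Fat4 (chromosome 3, 38884667 to 39011992), the receptor for Dchs1 in mammals, measured 3.47 and 3.44 in eIF4E, 14.09 in IgG, and 2.02 and 2.13 in Input, a rise of 1.45-fold (log2 0.54, SE 0.09, adjusted p = 0.00593) that was lost with quantile normalization (log2 0.057).

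Dchs1 (chromosome 7, 105752989 to 105788355), the ligand of Fat4, moved opposite to its receptor. It measured 5.63 and 5.12 in eIF4E, 13.24 in IgG, and 9.47 and 9.39 in Input. Both eIF4E libraries were the lowest of the 5, at 0.611 of Input (log2 -0.71, SE 0.09, adjusted p = 0.00175). The ratio of Fat4 to Dchs1 within a library was 0.616 and 0.672 in eIF4E, 1.06 in IgG, and 0.213 and 0.227 in Input. Fat1, which in mouse cortex lies at the apical junctions of radial glia, measured 7.17 and 8.83 in eIF4E, 22.17 in IgG, and 7.75 and 6.89 in Input. Its eIF4E and Input libraries overlapped, and the difference was not past the test (1.08-fold, adjusted p = 0.467), with a sign that turned under 3 of the alternatives. The ratio of Fat3 to Fat1 was 1.1 and 0.862 in eIF4E, 2.09 in IgG, and 0.117 and 0.0987 in Input.

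The 3 Celsr genes also split. Celsr2 (ENSMUSG00000068740; chromosome 3, 108390848 to 108416069), a planar polarity cadherin of ependymal cells and neurons, had the highest Input level of all 95 genes, at 61.85 and 56.75 in eIF4E, 157.58 in IgG, and 77.78 and 77.97 in Input. Both eIF4E values lay below both Input values, and IgG was the highest. Celsr3 (chromosome 9, 108826023 to 108852969), needed for the major axon tracts of the mouse forebrain, measured 6.78 and 6.87 in eIF4E, 23.54 in IgG, and 8.89 and 8.86 in Input, in the same order. They fell to 0.764 of Input (log2 -0.39, SE 0.06, adjusted p = 0.00392) and 0.792 of Input (log2 -0.34, SE 0.07, adjusted p = 0.0131). Both calls were lost with equal totals (log2 -0.15 and -0.12), and that of Celsr3 also without Input replicate 1 or 2 (adjusted p = 0.0596 and 0.0583).

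Celsr1 (chromosome 15, 85898758 to 86034223), a planar polarity cadherin of neural progenitors, measured 37.01 and 27.38 in eIF4E, 29.07 in IgG, and 19.75 and 20.79 in Input. It was higher in both eIF4E libraries than in both Input libraries, with IgG between the eIF4E values, at 1.54-fold (log2 0.63, SE 0.15, adjusted p = 0.0174). This call was lost without Input replicate 1 or 2 (adjusted p = 0.106 and 0.0856), with median-of-ratios scaling (adjusted p = 0.1), with quantile normalization (adjusted p = 0.0743) and without a low-value filter (adjusted p = 0.073). The ratio of Celsr1 to Celsr2 within a library was 0.598 and 0.482 in eIF4E, 0.184 in IgG, and 0.254 and 0.267 in Input, so the eIF4E libraries were highest whatever the scaling. Celsr3 to Celsr2 stood at 0.11 and 0.121 in eIF4E, 0.149 in IgG, and 0.114 and 0.114 in Input, where eIF4E and Input overlapped.

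The IgG library has no replicate, and the test gives it the spread of the other libraries. Against it, 18 of 48 genes were higher in eIF4E (37.5%, beside 53.1% of all genes) and 23 were lower (47.9%, beside 30.6%). Of the 18, 12 were listed at 0 in IgG, and no fold is given for them. These 12 were all of the tested members listed at 0 there, 25.0% of the 48, near the 20.8% of all genes tested. The other 6 were Cdh6, Cdh11, Pcdh1, Pcdh7, Pcdh17 and Pcdh18. The genes lower in eIF4E than in IgG included all 4 Fat and Dachsous genes, both tested type I cadherins, Celsr2, Celsr3 and Cdh13. With quantile normalization 1 gene was higher and 31 were lower (36.1% and 37.9% of all genes). Among genes above 0 in all 5 libraries 8 of 41 were higher and 26 lower (41.1% and 39.8% of all such genes).

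The comparison of IgG with Input showed 26 of 48 genes higher (54.2%, beside 37.8% of all genes) and 14 lower (29.2%, beside 50.3%), of which 11 were listed at 0 in IgG. The highest were Pcdh9 at 42.8-fold, Pcdh11x at 30.2-fold and Fat3 at 26.4-fold, and 25 of the 48 genes (52.1%) had their highest value of all libraries in IgG, beside 32.7% of all genes. Of the 21 genes higher in eIF4E than in Input, 8 were also higher than in IgG (16.7% of 48, beside 19.8% of all genes), 9 were lower than in IgG (18.8%, beside 16.8%) and 4 were not past the test. The 8 were Cdh6, Cdh7, Cdh11, Pcdh7, Pcdh17, Pcdh18, Pcdhb7 and Pcdhb21, which include the 4 that were tested only through their eIF4E values. With quantile normalization the difference from IgG turned for Cdh6 (log2 -0.053) and Pcdhb21 (log2 -0.20). It shrank to log2 0.44 for Cdh11, 0.21 for Pcdh18 and 0.33 for Pcdhb7. The count of members higher than IgG under that setting is given above. Against IgG the calls of Cdh11 and Pcdh18 did not hold with equal totals (adjusted p = 0.0737 and 0.485) or without Input replicate 1 (adjusted p = 0.0577 and 0.0899). Those lower in eIF4E than in both Input and IgG were Cdh13, Cdh24, Dchs1, Celsr2, Celsr3 and Pcdhga9 (12.5%, beside 7.2%). The 3 comparisons share libraries, and relative abundances do not give how much RNA either precipitate held.

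Members with a long genomic span tended to be higher in eIF4E than in Input. Gene spans, introns included, came from RefSeq for GRCm38.p6 and ranged among the 29 tested genes outside the clusters from 4.541 kb (Pcdh8) to 1554 kb (Pcdh15). The alpha and gamma clusters were left aside here because their annotated spans run across neighbouring isoforms. The 4 tested beta genes were left aside with them, although their spans were only 2.712 to 3.506 kb. Of these 4 short genes, 3 were higher in eIF4E than in Input and none was lower. Pcdhb7 and Pcdhb21, among those 3, were tested through their eIF4E values alone, which had built in a higher value there. Spearman's rho between span and log2 fold change was 0.577 over these 29 genes and 0.401 over the 12399 tested genes with a span. For IgG against Input it was 0.611 and 0.389. Over all 48 tested members, clustered genes included, rho was 0.391 for eIF4E against Input and 0.507 for IgG against Input. These are descriptions across genes that share the same libraries. Of the 20 genes over 50 kb, 16 were higher and 1, Cdh13, was lower, with a median log2 fold change of 0.79. Of the 9 at most 50 kb, 1, Pcdh18, was higher and 7 were lower, with a median of -0.52. These counts, medians and rho values include genes whose selection had built in or favoured their direction. Among the genes over 50 kb these were Cdh6, Pcdh17, Fat3, Pcdh7, Pcdh11x and Pcdh15, favoured towards a higher eIF4E value. Among the shorter genes it was Pcdh1, whose lower eIF4E value was built in.

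Over all tested genes the same division gave 66.2% higher and 13% lower above 50 kb (median 0.73), and 35.6% higher and 37.3% lower at or under it (median -0.05). The limit of 50 kb was chosen after the values were seen. With 100 kb, 14 of 18 longer genes were higher and 1 lower, and 3 of 11 shorter genes were higher and 7 lower. Of the pairs given above by their ratios, Fat4 and Dchs1 (127.3 and 35.37 kb), Celsr1 and Celsr2 (135.5 and 25.22 kb) and Cdh8 and Cdh24 (393.2 and 10.84 kb) lay on either side of 50 kb. Fat3 and Fat1 (592.5 and 119.2 kb), Pcdh9 and Pcdh10 (879.1 and 56.18 kb) and Cdh4 and Cdh2 (457.0 and 220.4 kb) were both over it, and Celsr3 and Celsr2 (26.95 and 25.22 kb) both under it. Cdh13, at 1185 kb, was the only gene over 50 kb called lower, and Cdh22, Fat1 and Pcdh15 were not past the test.

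**Figure D4:**
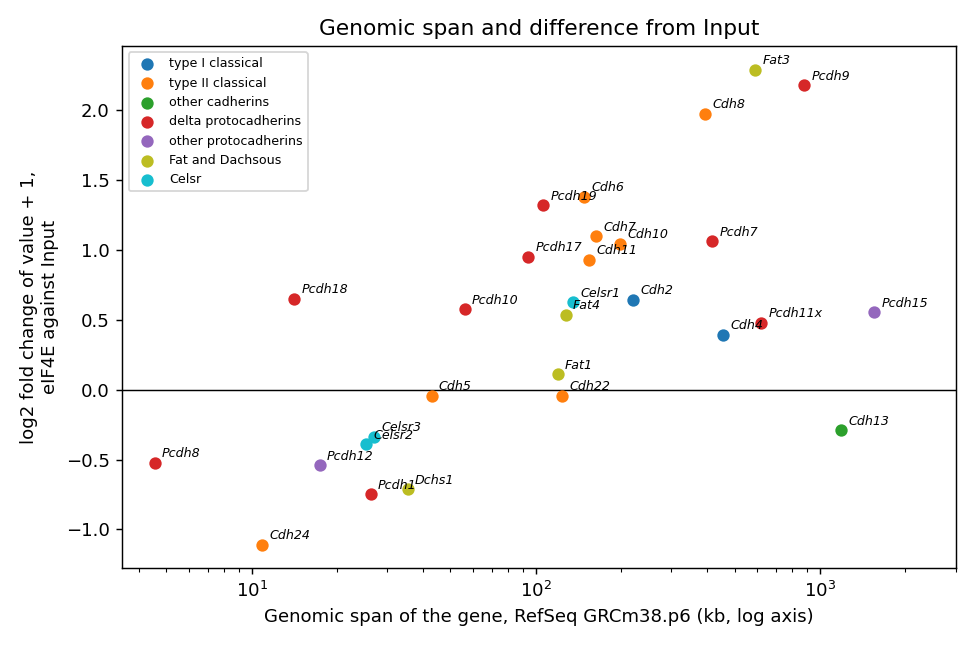
Log2 fold change of value + 1 in eIF4E against Input over genomic span (kb, log axis) for the 29 tested genes outside the clusters, 1 point per gene, coloured by subfamily. Of the 9 genes at or under 50 kb only Pcdh18 is well above 0, and of the 20 longer ones only Cdh13 is well below it.

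Genes that work with cadherins were described from 5 lists, whose counts stand beside 43.3% of all genes higher and 30.6% lower. Of 13 tested catenins and junction partners, 8 were higher and 2 lower in eIF4E against Input, at a median log2 fold change of 0.57 beside 0.16 for all genes. Afdn (afadin), which joins nectins to actin, measured 37.12 and 41.93 in eIF4E, 104.99 in IgG, and 8.22 and 5.33 in Input (5.30-fold over Input), and Tjp1 (ZO-1) rose 4.44-fold. Jup (plakoglobin) and Ctnnbip1, an inhibitor of beta-catenin, fell to 0.601 and 0.524 of Input. Nectins and other adhesion partners had 7 of 13 higher and 4 lower, with Nectin3 at 4.90-fold and Adam10, the protease that sheds N-cadherin, at 4.27-fold, and with Nectin2 at 0.520 of Input.

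Planar polarity genes, which work with Celsr proteins, had 4 of 15 higher and 6 lower, from Fzd3 (5.62-fold), which acts with Celsr3 in axon tracts, and Ankrd6 (3.84-fold) to Dvl3 (0.647 of Input) and Ptk7 (0.418). Genes of the Hippo pathway, linked to Fat and Dachsous in flies, had 9 of 14 higher and 1 lower. The kinase genes Stk3 and Taok1 rose 5.42-fold and 4.44-fold, Lats2 rose 1.85-fold, and the exception was the transcription factor Tead2 (0.692 of Input). Regulators and effectors of clustered protocadherins had 15 of 19 higher and 1 lower, at a median of 1.60, led by Nipbl (9.93-fold), which loads cohesin, and the cohesin subunit Smc3 (9.45-fold). Wasf1 fell to 0.787 of Input, a call lost with equal totals (adjusted p = 0.172). Dnmt3b rose 1.3-fold, a call lost without any 1 of the eIF4E or Input libraries (adjusted p from 0.0535 to 0.144) and in direction with quantile normalization (log2 -0.052).

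Against IgG the same lists looked different, with 5 higher and 6 lower for catenins, 5 and 2 for nectins, 4 and 6 for planar polarity, 2 and 9 for Hippo, and 7 and 9 for protocadherin regulators. Their medians there were -0.26, 0.41, -0.61, -0.46 and -0.29 in that order, beside 0.55 for all genes. Afdn, Tjp1, Nectin3, Taok1, Lats2, Nipbl and Smc3, all higher in eIF4E than in Input, were lower in eIF4E than in IgG, from 0.165 of IgG for Nectin3 (adjusted p = 3.95e-05) to 0.727 for Smc3 (adjusted p = 0.00967).

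In IgG against Input the medians of these lists were 1.08 for catenins, -0.69 for nectins, 0.78 for planar polarity, 1.63 for Hippo and 1.96 for protocadherin regulators, beside -0.43 for all genes. Scaling moved the counts: with median-of-ratios factors the list of catenins had 6 higher and 4 lower, nectins 5 and 5, planar polarity 3 and 7, Hippo 9 and 3, and protocadherin regulators 12 and 4. With quantile normalization Hippo had 7 and 4, and Lats2 was not past the test (adjusted p = 0.0643).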

How the data were processed

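RNA precipitated with eIF4E (n = 2) or control IgG (n = 1) and cytoplasmic Input RNA (n = 2) were sequenced as Smart-seq2 libraries, per the labels. The authors deposited 1 table of RSEM abundances, FPKM or TPM (the header does not say which, and they differ by 1 factor per library), made with STAR 2.7.9a and RSEM 1.3.3 on mm10, per the submitters' processing notes. Neither annotation version nor filters are stated there. Strand is not stated, so overlapping genes on opposite strands may share reads. Depth is unknown, so no counting intervals are given.

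The table had 50161 rows, of which 286 were exact repeats of another row's gene ID and values; 1 copy was kept, leaving 49875. Genes at 1 or more in at least 2 of 5 libraries (12769) were tested on log2(value + 1) with limma 3.58.1 in R 4.3.3 (3 groups, eBayes with trend, two-sided, Benjamini-Hochberg over all genes, threshold 0.05, 2 residual degrees of freedom). On simulated data the fit recovered 54% of 1.5-fold and 94% of 4-fold changes in eIF4E against Input. Few genes changed in that simulation, unlike in these data. It also gave IgG the spread of the other libraries, so it cannot test that assumption. Spans came by symbol from RefSeq GRCm38.p6, which held all 95 members. Named are, per subfamily, the 3 members highest in Input and the 2 highest and 2 lowest called, Fat, Dachsous and Celsr genes, Cdh1, Cdh2, Cdh5, Pcdh19 and the extremes of each comparison; in the 5 partner lists, the 2 highest and 2 lowest called. In the nectin list 1 of these is not reported here. Other genes named, and the genes in ratios, were chosen after their values were seen. Members and lists were chosen with earlier results of these data known. Alternatives covered scaling, pseudocount, filter, moderation, left-out replicates and a replicate block.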

Additional observations from a re-analysis of the deposited data

How the results depend on the processing

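Counts of members called changed by more than 1.5 times under these alternatives; shares of all genes under the same alternative follow in brackets. With quantile normalization, 12 were higher (33.7%) and 21 lower (40.3%) in eIF4E against Input, 1 was higher in eIF4E against IgG (36.1%), and 8 were lower in IgG against Input (40.5%). With equal totals 7 were lower in eIF4E against Input (21.5%). Where genes needed a mean of at least 5, which left 19 members, 12 were higher (43.7%) and 5 lower (35.0%) in eIF4E against Input, 2 higher (48.8%) and 14 lower (34.9%) in eIF4E against IgG, and 15 higher (42.7%) and 1 lower (47.2%) in IgG against Input. Without a filter on low values, 35 of 95 were higher in eIF4E against IgG (35.6%) and 32 lower in IgG against Input (33.0%). Among the 41 members above 0 in all libraries these counts were 8 (41.1%) and 4 (38.1%). When 1 eIF4E or Input library was left out, the count higher ranged from 15 to 21 and lower from 7 to 11 in eIF4E against Input, from 16 to 18 and 23 to 23 in eIF4E against IgG, and from 23 to 26 and 12 to 14 in IgG against Input. The stricter filters test fewer genes; other causes were not tested. The number of reads is unknown, so whether a low value could have shown a difference cannot be said.

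Replicate numbers were not shown to pair the samples: deviations of same-numbered eIF4E and Input libraries correlated at r = 0.0236 over 12769 genes. With the replicate number as a block, 23 members were higher and 11 lower in eIF4E against Input, and the calls of Pcdh8, Pcdh15 and Pcdha12 changed as given above; the other named members kept theirs. No paired analysis was possible for IgG because it has 1 library.

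Directions turned, all in log2, under quantile normalization in eIF4E against Input for Cdh4 (-0.20), Fat1 (-0.42), Pcdh11x (-0.0083) and Pcdhb22 (-0.12); in eIF4E against IgG for Cdh6 (-0.053), Pcdh1 (-1.06), Pcdh8 (-0.052), Pcdh12 (-0.15), Pcdhb17 (-0.90), Pcdhb21 (-0.20), Pcdhb22 (-0.18), Pcdhgb1 (-0.42) and Pcdhgc4 (-0.14); and in IgG against Input for Cdh6 (0.81), Pcdh1 (0.12), Pcdh18 (-0.068), Pcdhb7 (0.028), Pcdhb21 (0.49) and Pcdhb22 (0.067). With median-of-ratios scaling they turned for Fat1 in eIF4E against Input (-0.18) and for Cdh11 (-0.13) and Pcdh18 (-0.019) in IgG against Input. With equal totals they turned for Cdh5 in eIF4E against Input (0.078), for Celsr1 (-0.21), Pcdhb17 (-0.10) and Pcdhgc3 (-0.016) in eIF4E against IgG, and for Cdh24 in IgG against Input (0.19). Leaving out a library turned Cdh5 (0.012 without eIF4E replicate 2 and 0.079 without Input replicate 2, in a range from -0.17), Fat1 (-0.024 without eIF4E replicate 2, in a range up to 0.24), and, against IgG, Celsr1 (-0.083 without eIF4E replicate 1, in a range up to 0.34) and Pcdhb17 (-0.0044 without eIF4E replicate 2, in a range up to 0.31). The cause of these turns was not tested.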
